A study of Mus musculus with 6 samples.

Results

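Upper glycolysis comprises the steps that trap glucose in the cell and split it into trioses. The enzymes read here were 10 listed genes: the hexokinases Hk1 and Hk2, the isomerase gene Gpi1, the phosphofructokinase subunits Pfkl, Pfkm and Pfkp, the bifunctional regulators Pfkfb3 and Pfkfb4, and the aldolases Aldoa and Aldoc. They were taken as all probe sets of the array whose single platform gene symbol was on that list. This gave 20 of 45037 probe sets that are not controls, for 9 of the 18193 genes with such a probe set. Gpi1, the isomerase gene, had no such probe set, so its signal is not analysed here.

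The samples were C2C12 cells, a mouse myoblast line whose cells fuse into myotubes when they differentiate, labelled as undifferentiated. The pyruvate group (3 samples) received 50 mM sodium pyruvate for 72 h in DMEM without other sodium pyruvate, and the untreated group (3 samples) was kept for 72 h in basal DMEM. Glutamine (4 mM), antibiotics (1%) and fetal bovine serum (10%) were in both media. The sources used here do not say whether the basal DMEM held some pyruvate, and describe no control with another sodium salt. Each sample was 1 Affymetrix Mouse430_2 array, with 1 MAS5 signal per probe set in linear units. The study's title concerns mitochondrial biogenesis, and no question about glycolysis is stated in the labels.

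Hexokinase phosphorylates glucose on entry, phosphoglucose isomerase turns the product into fructose 6-phosphate, and phosphofructokinase commits it to glycolysis by adding a further phosphate. PFKFB enzymes make and remove fructose 2,6-bisphosphate, the strongest activator of phosphofructokinase, and aldolase splits the sugar into trioses. Hexokinase, phosphofructokinase, PFKFB and aldolase each have isozymes encoded by separate genes. Pfkm and Aldoa are the forms of adult muscle, Pfkl is the liver form, Pfkp the platelet form and Aldoc the form of brain. Many proliferating cells make several at once. Several of these genes are known targets of hypoxia inducible factor.

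Median signals of the 6 arrays were between 30.3 and 33.0, and pairs of arrays correlated at 0.985 to 0.991 in the same group, and at 0.979 to 0.983 across groups (across probe sets, which are not independent replicates). Bright probe sets as a class were higher on the pyruvate arrays: the 247 with a mean log2(signal + 16) of 12 to 13 had a median change of 0.43, while the 2388 between 9 and 10 had one of 0.00. Of 15 myotube markers, 13 were tested and 12 were lower with pyruvate. Their summed signal was 1103 to 1413 on pyruvate arrays and 8039 to 8617 on untreated arrays, and their part in the results on glycolysis was not tested. Of 6 myoblast markers 4 were tested: Myod1 was higher (mean 1525 in pyruvate cells and 1268 in untreated cells), Myf5 and Cdh15 were lower by log2 changes of -0.65 and -0.39, and Des was not called. The summed signal of this list was 5263 to 5558 with pyruvate and 5829 to 6171 in untreated cells. Pax7, a marker of muscle stem cells, was at 20.5 in pyruvate cells and 26.5 in untreated cells. On the adipocyte list 5 of 6 markers had a probe set and 2 were tested: Cebpa was higher, at 78.3 in pyruvate cells and 36.6 in untreated cells, and Pparg, at 102.5 in pyruvate cells and 83.9 in untreated cells, was not called. Adipoq and Lep had means of at most 11.3 in either group, and Fabp4 had means of 15.8 in pyruvate cells and 18.4 in untreated cells. The list's summed signal was 186 to 244 with pyruvate and 133 to 177 in untreated cells. Of 4 fibroblast markers tested Postn was higher and the others were not called, with summed signals of 608 to 687 with pyruvate and 633 to 667 in untreated cells. Those of the bone and cartilage list were 348 to 411 with pyruvate and 329 to 349 in untreated cells. In such bulk RNA, fewer cells of a type and less RNA per cell cannot be told apart.

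Pyruvate was set against untreated cells with limma over 22519 probe sets. These were the probe sets whose mean log2(signal + 16) over the 6 arrays reached the median of all, equal to a signal of about 30.3. Adjusted p-values are Benjamini-Hochberg values over all of these, with a threshold of 0.05. A log2 change is pyruvate minus untreated on the log2(signal + 16) scale, which understates the change of dim probe sets. Of the 20 upper glycolysis probe sets 17 were tested, and 2 were higher and 9 lower with pyruvate, where 32.2% of all probe sets tested were called (16.3% higher and 15.9% lower). After quantile normalization 2 were higher and 10 lower, where 31.2% of all probe sets were called. The groups did not overlap in 13 of the 17, against 45.4% of all probe sets tested. The called probe sets are not independent, since several read the same gene: 3 were of Pfkl, 2 of Pfkp and 4 of Aldoa among the lower ones. With each gene read by its brightest probe set, 1 gene was higher and 2 were lower of 8 tested, where 35.1% of all 10685 genes were called (20.7% higher and 14.5% lower). The groups did not overlap for 5 of the 8 genes, beside 48.6% of all genes. These shares of genes are near those of all genes. The median change over these 8 genes was 0.01, beside 0.03 over all genes tested.

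**Figure D1:**
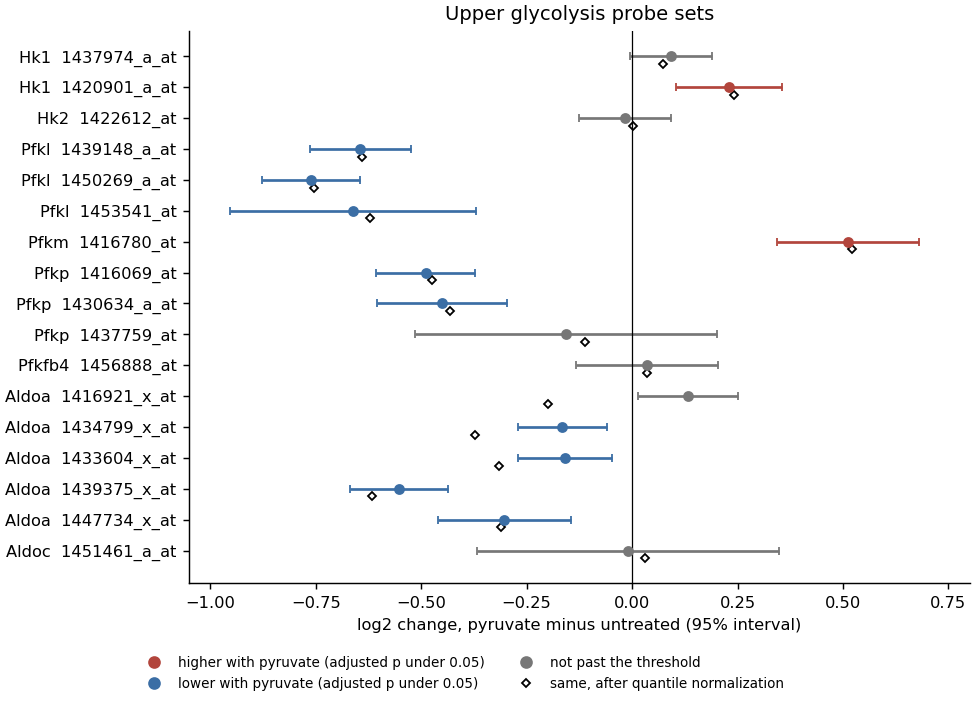
Log2 change with pyruvate (horizontal axis, pyruvate minus untreated, with the 95% interval of the limma fit) for the 17 tested probe sets of upper glycolysis, 1 row each. Red points were called higher and blue points lower at an adjusted p of 0.05, grey points were not called, and open diamonds give the change after quantile normalization. Pfkl and Pfkm lie on opposite sides of 0, and the brightest Aldoa probe set changes side with the normalization.

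With each gene read by its brightest probe set, phosphofructokinase held the 3 largest changes among the members, and its subunits moved in opposite directions. Pfkl and Pfkp were lower in pyruvate cells, at 0.634 and 0.706 times the untreated mean on their brightest probe sets, while Pfkm was higher by 44.6%. The active enzyme is a tetramer that can mix these subunits. The upstream sequences of the 3 genes are shown first because these were the members called by their brightest probe sets. RefSeq sequence of mouse build GRCm38.p6 gives 1 transcription start each for Pfkl and Pfkp and 4 for Pfkm, of which the first pair is printed. Each run is the 250 bases before the start, 5′ to 3′ on the gene's strand, and capitals mark ACGTG or GCGTG on either strand, the core letters of hypoxia response elements.
Pfkl, chr10:78009808-78010057, minus strand: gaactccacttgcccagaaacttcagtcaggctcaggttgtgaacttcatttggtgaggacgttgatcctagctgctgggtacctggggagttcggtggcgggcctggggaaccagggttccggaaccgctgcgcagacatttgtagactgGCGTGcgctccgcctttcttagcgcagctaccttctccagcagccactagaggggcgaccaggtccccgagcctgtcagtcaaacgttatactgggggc
Pfkp, chr13:6648772-6649021, minus strand: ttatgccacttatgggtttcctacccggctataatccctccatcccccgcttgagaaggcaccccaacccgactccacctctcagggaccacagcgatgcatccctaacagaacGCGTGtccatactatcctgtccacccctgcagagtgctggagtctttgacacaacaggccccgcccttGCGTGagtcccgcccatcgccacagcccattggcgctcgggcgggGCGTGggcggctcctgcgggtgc
Pfkm, start 1, chr15:98092339-98092588, plus strand: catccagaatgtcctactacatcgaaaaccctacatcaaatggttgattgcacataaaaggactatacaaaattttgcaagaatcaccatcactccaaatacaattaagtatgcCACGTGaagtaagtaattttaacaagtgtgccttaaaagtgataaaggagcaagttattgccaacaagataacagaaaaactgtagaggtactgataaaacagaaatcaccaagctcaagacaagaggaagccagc
Pfkm, start 2, chr15:98108221-98108470, plus strand: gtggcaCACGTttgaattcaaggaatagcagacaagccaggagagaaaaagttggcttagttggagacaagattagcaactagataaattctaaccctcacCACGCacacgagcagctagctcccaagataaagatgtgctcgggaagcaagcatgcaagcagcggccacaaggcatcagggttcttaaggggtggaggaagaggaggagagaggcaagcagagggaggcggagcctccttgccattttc

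The windows searched ran from 250 bases before to 50 after each start, 300 in all. Pfkl held 1 such core and Pfkp held 4, 3 of them in the printed part. The first Pfkm window held 3 matches, of which a pair are the letters CACGTG read on each strand, and the second held 2. Over the 10 listed genes, 14 of 18 windows held ACGTG or GCGTG, beside 43.8% of all 32851 windows of that length in the table. E boxes, CANNTG on either strand, stood in 13 of the 18 windows and in 72.3% of all windows, and CACGTG counts as both motifs. Some windows of Pfkm and of Aldoa overlap each other. Core letters were found for Pfkl and Pfkp, which fell, and in some but not all windows of Pfkm, which rose. A match is only a description of these letters.

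Pfkl encodes the liver-type subunit. Its brightest probe set, 1439148_a_at, had signals of 659.5, 670.6 and 693.5 in pyruvate cells, against 1033.2, 1137.0 and 1022.2 in untreated cells. All 3 pyruvate arrays were below all untreated arrays, and the log2 change was -0.64 ± 0.05 (SE) (adjusted p = 9.6e-06, limma). The other probe sets gave the same direction. Probe set 1450269_a_at had 453.6, 418.3 and 452.8 in pyruvate cells, against 759.5, 761.5 and 756.5 in untreated cells, a log2 change of -0.76 (adjusted p = 2.2e-06, limma). The dimmest, 1453541_at, had 36.7, 26.4 and 31.9 with pyruvate and 58.4, 55.6 and 63.5 without, a log2 change of -0.66 (adjusted p = 0.0030, limma). On a linear scale the mean signals of the 3 probe sets with pyruvate were 0.634, 0.582 and 0.535 times those without. Of all probe sets tested, 95.8% had a smaller absolute change than the brightest of Pfkl.

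Pfkp encodes the platelet-type subunit. Probe set 1416069_at, its brightest, had 566.3, 589.7 and 564.6 in pyruvate cells, against 775.7, 804.5 and 855.4 in untreated cells. The groups did not overlap, and the log2 change was -0.49 ± 0.05 (SE) (adjusted p = 5.3e-05, limma). Probe set 1430634_a_at fell to 256.7 ± 17.3 in pyruvate cells, against 356.8 ± 19.8 in untreated cells (SD, n = 3 arrays each, limma adjusted p = 0.00057), a log2 change of -0.45. The dimmest, 1437759_at, lay near the floor at 34.7, 36.9 and 26.1 with pyruvate and 28.8, 40.0 and 46.3 without. Its groups overlapped, and its change of -0.16 had a 95% interval of -0.51 to 0.20, which holds the changes of the other Pfkp probe sets.

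Pfkm encodes the muscle-type subunit and was read by 1 probe set, 1416780_at. Its signals were 381.0, 387.7 and 403.0 in pyruvate cells, against 243.9, 264.2 and 302.2 in untreated cells. The pyruvate arrays were all higher, and the untreated arrays were spread wider, with SDs of 11.3 and 29.6. The log2 change was 0.51 ± 0.08 (SE) (adjusted p = 0.00043, limma), and leaving out each array in turn gave 0.44 to 0.59. Myotube markers fell on the same arrays, as given above.

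**Figure D2:**
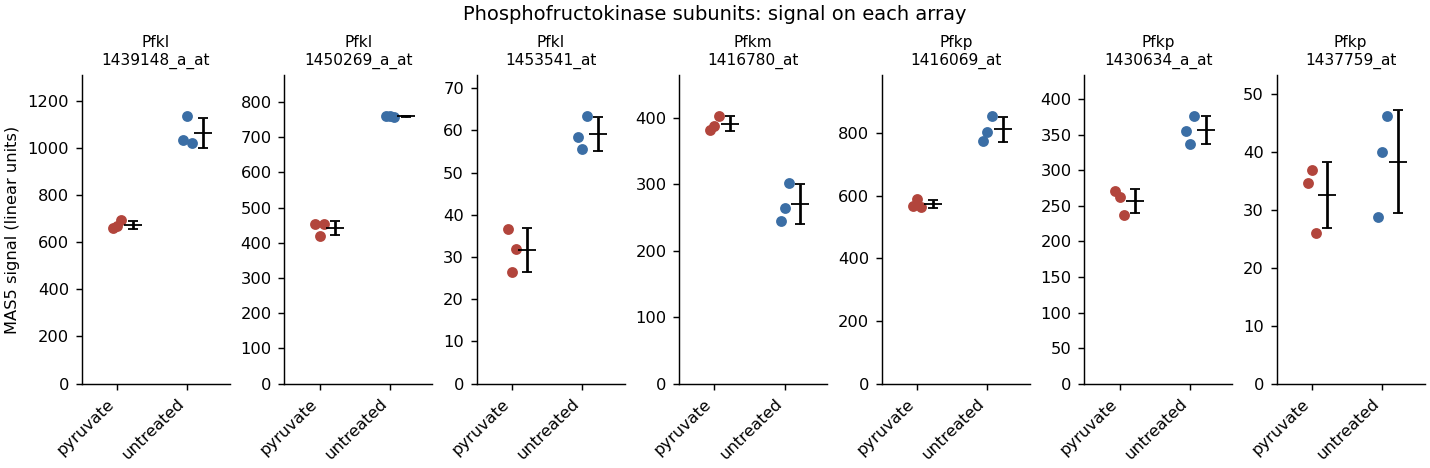
MAS5 signal (vertical axis, linear units from 0, a separate scale per panel) of the 7 phosphofructokinase probe sets on each array, with pyruvate arrays in red and untreated arrays in blue. Black bars are the mean ± SD of 3 arrays. The groups are apart in 6 of the 7 panels, with Pfkm the one that is higher with pyruvate, and they overlap in the dimmest Pfkp probe set.

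Since probes differ in how strongly they bind, levels of different subunits cannot be set against each other, but the difference of 2 log2 values on the same array can be followed between groups. This was done for 6 isozyme pairs on their brightest probe sets. With 3 against 3 arrays the exact two-sided permutation test cannot give a p below 0.1. Pfkm minus Pfkl was -0.77, -0.77 and -0.76 on the pyruvate arrays, against -2.01, -2.04 and -1.71 on the untreated arrays. The pyruvate values were thus higher on every array, by 1.16 in the mean and by 0.94 to 1.28 over the 9 pairings of a pyruvate with an untreated array (exact p = 0.1, the smallest possible, and 0.2 adjusted over the 6 pairs). Pfkm minus Pfkp changed by 1.00 in the same direction, with 0.87 to 1.14 over the 9 pairings and no overlap (exact p = 0.1, adjusted 0.2). Pfkp minus Pfkl changed by only 0.16, with a range of -0.04 to 0.31 that includes 0 and groups that overlapped (exact p = 0.2, adjusted 0.3). So Pfkm moved against both other subunits, while a difference between the falls of Pfkl and Pfkp was not resolved on these probe sets. Averaged over all probe sets of each gene, Pfkp minus Pfkl changed by 0.32. That average gives the dimmest Pfkp probe set, near the floor at -0.16, the same weight as the brighter ones at -0.49 and -0.45.

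**Figure D3:**
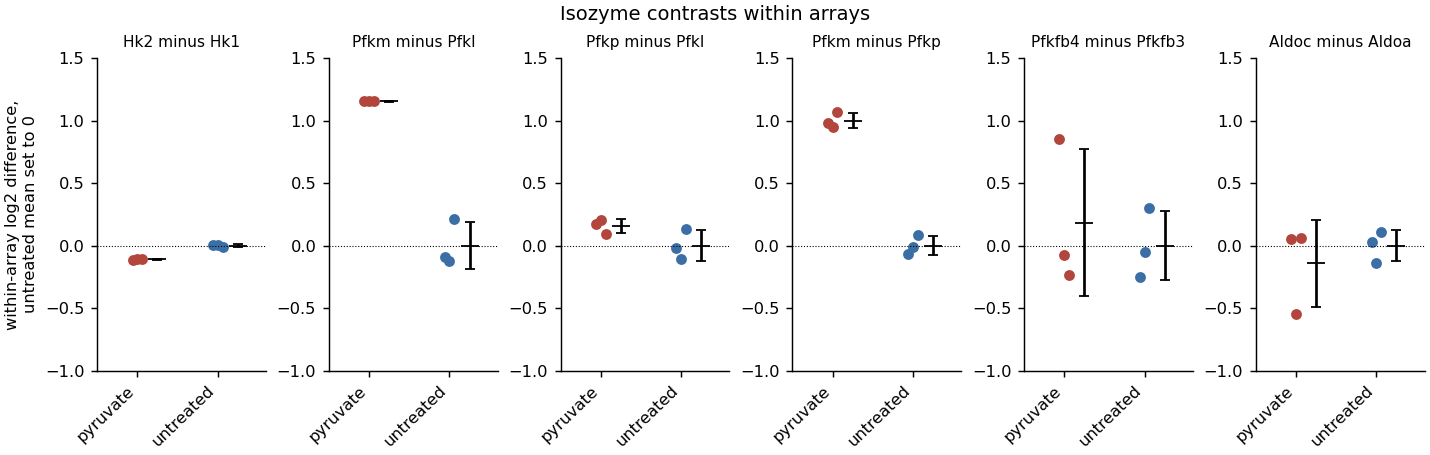
Difference between 2 isozymes' log2(signal + 16) on the same array (vertical axis, with the mean of the untreated arrays set to 0) for 6 pairs, pyruvate arrays in red and untreated arrays in blue. Black bars are the mean ± SD of 3 arrays. Pfkm rose against Pfkl by 1.16 and against Pfkp by 1.00, while the pairs with the dim Pfkfb3 and Aldoc are spread over more than their mean change.

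Among the hexokinases, which carry out the first step, changes were small. Hk2, the hexokinase of skeletal muscle and many growing cells, had signals of 537.5, 530.2 and 545.5 in pyruvate cells, against 544.5, 553.8 and 533.7 in untreated cells. The groups overlapped, and the log2 change of -0.02 had a 95% interval of -0.13 to 0.09 (adjusted p = 0.84, limma), so a change beyond about 0.13 in either direction was outside the interval. Hk1, the form found in most tissues, was read by 2 probe sets. The brighter, 1437974_a_at, had 1229.1, 1205.9 and 1245.0 in pyruvate cells, against 1145.9, 1165.6 and 1137.3 in untreated cells. The groups did not overlap, but its change of 0.09 did not pass (adjusted p = 0.14, limma). The dimmer, 1420901_a_at, had 689.3, 647.1 and 643.5 with pyruvate and 565.8, 527.5 and 587.8 without, and rose by 0.23 (adjusted p = 0.0099, limma). Hk2 minus Hk1 was lower on all pyruvate arrays, by 0.11 in the mean (-0.12 to -0.09 over the 9 pairings, exact p = 0.1, adjusted 0.2). That change was -0.07 after quantile normalization, -0.04 after cyclic loess normalization and -0.18 with the mean over the probe sets of each gene. An additional probe set annotated to Hk1 together with ribosomal protein genes has several symbols and was not used.

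Of the PFKFB enzymes, Pfkfb4 had signals of 154.0, 156.0 and 151.9 in pyruvate cells, against 146.3, 148.1 and 155.3 in untreated cells. These overlapped, with a log2 change of 0.04 and a 95% interval of -0.13 to 0.20 (adjusted p = 0.76, limma). Pfkfb3, the form with the highest kinase over phosphatase activity, lay under the filter on both of its probe sets and was not tested. Probe set 1456676_a_at had 11.4, 36.7 and 41.5 with pyruvate and 40.2, 33.5 and 24.6 without, and 1416432_at had 41.4, 20.3 and 27.1 with pyruvate and 33.0, 25.9 and 20.3 without. Without the filter, the 95% intervals of their changes were -0.82 to 0.52 and -0.40 to 0.58, so neither direction was resolved at this signal. Pfkfb4 minus Pfkfb3 accordingly had no direction (0.18 in the mean, -0.53 to 1.10 over the 9 pairings, exact p = 0.8, adjusted 0.8).

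Aldoa, the muscle and ubiquitous aldolase, was the brightest member, and its 5 probe sets disagreed. All carry the suffix x_at, which Affymetrix gives to probe sets with some probes that match other sequences as well, and the mouse genome holds processed copies of Aldoa, so which transcripts each reads is uncertain. The brightest, 1416921_x_at, had 4482.0, 4714.7 and 4573.6 in pyruvate cells, against 4166.5, 4438.9 and 3965.9 in untreated cells. It was higher on every pyruvate array, yet its change of 0.13 did not pass (adjusted p = 0.084, limma). The other 4 were called lower, and on each of them the groups did not overlap. The largest of these changes, in 1439375_x_at, was -0.55 (adjusted p = 2.3e-05, limma), with 1629.3, 1511.7 and 1484.7 in pyruvate cells, against 2248.6, 2186.5 and 2371.7 in untreated cells. Probe set 1447734_x_at changed by -0.30 (adjusted p = 0.0076, limma), with 780.5, 928.4 and 897.0 with pyruvate and 1061.1, 1156.1 and 1005.6 without.

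The remaining pair of Aldoa probe sets fell by 0.17 (1434799_x_at, adjusted p = 0.021, limma) and 0.16 (1433604_x_at, adjusted p = 0.033, limma). These were the least stable calls. The first was lost without pyruvate replicate 3 and without each untreated replicate in turn, at changes of -0.17 to -0.15. The second was lost without pyruvate replicate 1 or 3 and without each untreated replicate, at changes of -0.17 to -0.12. Both calls were also lost without the signal filter (adjusted p = 0.057 and 0.086, limma) and without the variance trend (adjusted p = 0.083 and 0.11, limma). The second was lost with median centring as well (adjusted p = 0.062, limma). Both probe sets lie among the bright ones that were higher as a class. Quantile normalization gives all arrays the same distribution and so takes out the trend. After it all 5 Aldoa probe sets were lower, with changes of -0.20 for the brightest (adjusted p = 0.0024, limma) and -0.31 to -0.62 for the others. After cyclic loess normalization the brightest was at -0.04 (adjusted p = 0.48, limma) and the others at -0.30 to -0.65. Against the brightest probe set on the same array, the other 4 were lower with pyruvate by 0.29 to 0.69, with no overlap of the groups for any of them. A single scale factor per array does not alter these differences, and their origin was not tested.

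**Figure D4:**
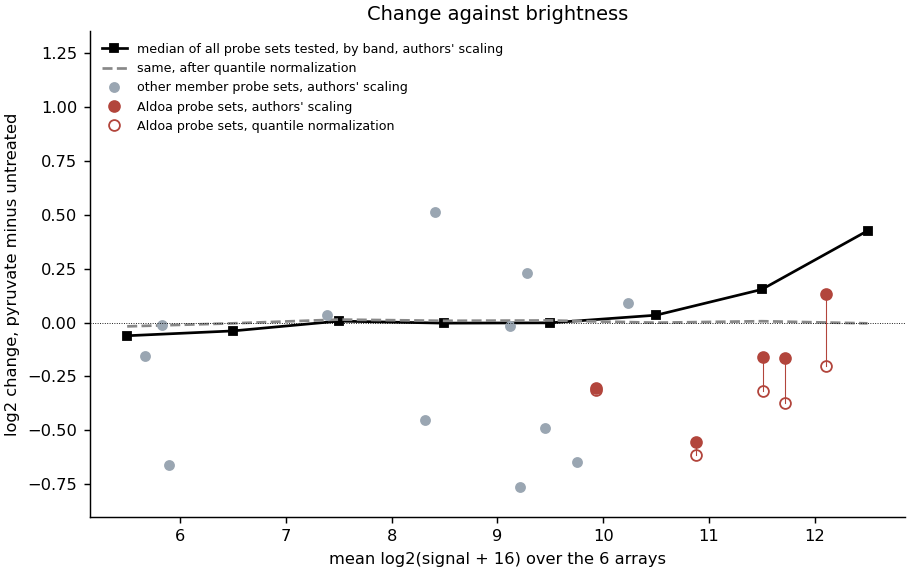
Log2 change with pyruvate (vertical axis) against mean log2(signal + 16) over the 6 arrays (horizontal axis). The black line joins the medians of all probe sets tested in bands of width 1, the dashed line is the same after quantile normalization, and filled and open red circles are the 5 Aldoa probe sets before and after it. The band medians climb to 0.43 at the bright end, and 4 of 5 Aldoa probe sets lie under 0 before and all 5 after quantile normalization.

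Aldoc, the brain aldolase, was near the floor. Probe set 1451461_a_at had 47.4, 28.0 and 49.0 in pyruvate cells, against 41.9, 38.9 and 42.2 in untreated cells. The pyruvate arrays lay on both sides of the untreated ones, and the log2 change of -0.01 had a 95% interval of -0.37 to 0.35 (adjusted p = 0.97, limma). The second probe set, 1424714_at, had signals of at most 2.7 on any array and was not tested. Aldoc minus Aldoa changed by -0.14 (-0.65 to 0.20 over the 9 pairings, exact p = 0.7, adjusted 0.8), and by 0.23 after quantile normalization.

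The rest of the pathway was read from lists, each gene by its brightest probe set. Of all genes tested in this way, 20.7% were higher and 14.5% lower. Lower glycolysis was taken from triose phosphate isomerase to lactate dehydrogenase. Of 12 listed genes 10 had a probe set of 1 symbol, and Gapdh and Eno1 had none. Of 9 tested genes 3 were higher and 1 lower (median 0.04). Pkm, pyruvate kinase, had 5122.3, 5537.6 and 5225.6 in pyruvate cells, against 3547.3, 3825.2 and 3504.8 in untreated cells, a change of 0.54 (adjusted p = 2.8e-05, limma). The phosphoglycerate kinase Pgk1 and the muscle enolase Eno3 rose by 0.37 and 0.26, and Tpi1, triose phosphate isomerase, fell by 0.19. These are bright probe sets. After quantile normalization 2 genes were higher and 4 lower, beside 2138 and 1564 of all 10687 genes. Pkm was then at 0.23, Eno3 at 0.13 and Tpi1 at -0.41, and Pgk1 turned to -0.13 (adjusted p = 0.020, limma). Ldha and Pgam1, not called before, were then lower at -0.28 and -0.22 (adjusted p = 9.3e-05 and 0.019, limma). After cyclic loess normalization Pgk1 was at 0.17 (adjusted p = 0.013, limma). Eno3 and Pgam1 did not pass there (adjusted p = 0.053 and 0.065, limma), and Ldha was at -0.13 (adjusted p = 0.023, limma). The other 2 Pgk1 probe sets were called 1 higher and 1 lower.

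Among genes of the side branches, which draw sugar phosphates off the upper pathway or feed it, 1 of 16 was higher and 3 were lower (median 0.06). Of all genes tested, 20.7% were higher and 14.5% lower. Pgd, a dehydrogenase of the pentose phosphate pathway, rose by 0.33 to 1739 ± 48.9 in pyruvate cells, against 1387 ± 182 in untreated cells (SD, n = 3 arrays each, limma adjusted p = 0.0069), and its other 3 probe sets were called higher as well. Rpia, which makes ribose 5-phosphate, fell by 0.26, Gfpt1, the entry enzyme of hexosamine synthesis, by 0.24, and Gpd2, the mitochondrial glycerol 3-phosphate dehydrogenase, by 0.28. The other tested probe set of Gfpt1 was not called, and 1 of the other 3 tested probe sets of Gpd2 was called lower.

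Of 3 tested genes for reverse steps and brakes on glucose use, 2 were higher, where 20.7% of all genes tested were higher. G6pc3, the widely expressed glucose 6-phosphatase that undoes the hexokinase step in the endoplasmic reticulum, had 385.1, 380.5 and 415.2 in pyruvate cells, against 236.5, 220.3 and 224.6 in untreated cells. The groups were far apart, with a change of 0.75 (adjusted p = 9.4e-06, limma), larger in size than that of any member but for 1 Pfkl probe set. Txnip, which limits glucose uptake, rose by 0.23 (adjusted p = 0.021, limma), though its other tested probe set was not called and its own call was lost without the signal filter (adjusted p = 0.059). Tigar, which lowers fructose 2,6-bisphosphate, was at 95.6 ± 8.64 in pyruvate cells and 102.0 ± 6.09 in untreated cells (SD, n = 3 arrays each) and did not pass (-0.08, limma adjusted p = 0.58). The fructose 1,6-bisphosphatases Fbp1 and Fbp2, which undo the phosphofructokinase step, had means of at most 18.4 in either group and were not tested.

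Of the glucose transporters, 2 of 5 listed could be tested. Slc2a1, the main transporter of growing cells, fell by 0.25 (adjusted p = 0.020, limma), with 1055.8, 1274.1 and 1056.0 in pyruvate cells, against 1370.0, 1276.0 and 1376.2 in untreated cells, and 1 of its other 2 tested probe sets was called lower. Slc2a8, an intracellular transporter, rose by 0.39 (adjusted p = 0.036, limma). Without the signal filter both calls were lost (adjusted p = 0.073 for Slc2a1 and 0.095 for Slc2a8, limma). Other isozymes of the upper steps gave no call: the ADP-dependent glucokinase Adpgk was at -0.03 (adjusted p = 0.91, limma) and Pfkfb2 at 0.22 (adjusted p = 0.26, limma), both dim.

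Among regulators of glycolytic genes, 1 of 10 was higher and 4 were lower (median -0.12). The shares over all genes tested were 20.7% higher and 14.5% lower. Egln3, a prolyl hydroxylase that marks hypoxia inducible factor for destruction and is one of its targets, changed by -0.90. Arnt, the constant partner of hypoxia inducible factor, fell by 0.44 and Prkaa1, a catalytic subunit of AMPK, by 0.35. Myc, a transcription factor that drives several glycolytic genes, rose by 0.33 (adjusted p = 0.0019, limma). Vhl, the ubiquitin ligase subunit that recognises the marked factor, was picked here with its value known and changed by -0.19 (adjusted p = 0.048, limma), and this call was lost after quantile normalization and without the signal filter (adjusted p = 0.057 in each). Hif1a itself did not pass (-0.12, adjusted p = 0.080, limma) but was lower after quantile normalization (-0.19, adjusted p = 0.0080).

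Targets of hypoxia inducible factor outside glycolysis were read beside the members, since several members are targets too. Of 14 tested, 9 were lower and 5 were not called with limma (median -0.49), where 14.5% of all genes tested were lower. After quantile normalization 8 were lower, beside 1564 of all 10687 genes. Egln3 is counted both here and among the regulators. The list was chosen with earlier results of these data known and is no independent evidence of its direction. Pdk1 and Bnip3, which restrain pyruvate oxidation and start mitophagy, changed by -1.69 and -1.11, Egln3 by -0.90 and the lactate exporter Slc16a3 by -0.69. Among the members, Pfkl, the brighter Pfkp probe sets and the dimmer Aldoa probe sets were called lower. Pfkm and the dimmer Hk1 probe set were called higher. Hk2, Pfkfb4 and the brightest probe sets of Hk1, Aldoa and Aldoc were not called. Whether the fall of these targets has a part in the results on the members was not tested.

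**Figure D5:**
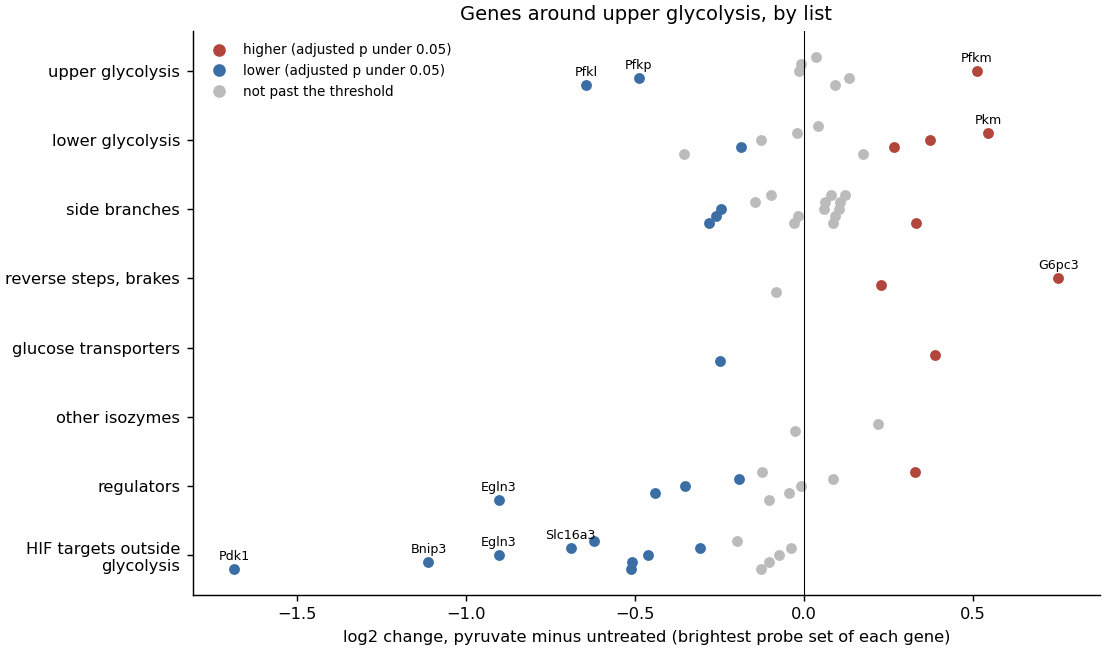
Log2 change with pyruvate (horizontal axis, brightest probe set of each tested gene) for upper glycolysis and 7 lists of related genes, 1 row per list and 1 point per gene. Red genes were called higher and blue genes lower, grey genes were not called, and heights within a row only separate the points. Upper glycolysis has calls on both sides of 0, while the targets of hypoxia inducible factor outside glycolysis have calls below 0 only.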

How the data were processed

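RNA of 6 C2C12 samples was measured on 1 array each, 3 with pyruvate and 3 untreated. The submitters' processing notes name MAS5, and the deposited table holds its signal, a linear intensity, for each probe set. In the deposited values each array has a trimmed mean of 150.0. The sources used here give no MAS5 settings or genome build. That common scale was kept. Arrays carry no read depth, and their number limits the precision.

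Of 45101 probe sets, 64 controls were left out. Of the others 34945 had 1 platform symbol, 932 several and 9160 none. Of the probe sets with 1 symbol, 34741 matched a RefSeq table (GRCm38.p6) by Entrez identifier. Signals were taken as log2(signal + 16). limma 3.58.1 in R 4.3.3 (lmFit, eBayes with variance trend, two-sided) compared the groups over 22519 probe sets at or above a mean log2 value of 5.53, with Benjamini-Hochberg adjustment. Isozyme pairs used exact permutation tests over 20 arrangements in scipy 1.17.1. The limma script was tested on simulated data. Promoters came from RefSeq, GRCm38.p6, and all 10 genes matched. Figures were drawn with matplotlib 3.10.9.

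All probe sets of the members were named. Of each other list, up to 4 called genes with the largest absolute change were named, or 2 by signal where none passed, plus Fbp1, Fbp2, Tigar and Myc. Hif1a, Vhl, Ldha, Pgam1, Pgam2 and the cell type markers were named outside this rule. Members, lists, rules and alternatives were chosen with earlier results of these data known. Whether replicates came from separate cultures is not in the labels. The p-values therefore measure the spread among these 6 samples alone, and that may be technical. Same-numbered samples did not deviate together (correlations of -0.01, 0.01 and 0.02), so no pairing was used. The alternatives were other pseudocounts, signal filters, normalizations, variance settings, array weights, a replicate block, a minimum change, means over probe sets and each array left out.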

Additional observations from a re-analysis of the deposited data

How the results depend on the processing

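All calls for Pfkl, Pfkm, Pfkp and the dimmer Hk1 probe set kept their direction and their side of the threshold under every alternative that gave them a value, except a minimum absolute log2 change of 1. Under that minimum 105 probe sets were higher and 118 lower in all. It was a cutoff on the estimated change and left the limma p-values as they were. The largest absolute change of a member was 0.76, so 0 member probe sets and 0 member genes could be called in either direction. In the fit as reported 11 member probe sets had an adjusted p under 0.05, and 12 had an unadjusted p under 0.05 (limma). The brightest Aldoa probe set reversed to -0.20 with quantile normalization, and Aldoa to -0.21 with the mean over its probe sets. Member genes called higher numbered 2 with median centring (Aldoa added) and 2 with the mean over probe sets (Hk1 added, 0.16). Leaving out each array gave 7 to 9 member probe sets lower and 2 higher, beside 2580 to 3559 lower and 2797 to 3489 higher of all probe sets. No signal filter gave 7 and 2, beside 2821 and 2970 of 45037, where the adjustment covers more probe sets. The fit as reported called 3572 lower and 3678 higher of 22519. For the isozyme pairs, Hk2 minus Hk1 was -0.0719 with quantile normalization, -0.043 with cyclic loess and -0.18 with the mean over probe sets. Pfkp minus Pfkl was 0.32 with the mean over probe sets. Pfkm minus Pfkp was 0.91 with a pseudocount of 64 and 0.88 with the mean over probe sets. Aldoc minus Aldoa was 0.23 with quantile normalization and 0.19 with the mean over probe sets. The cause of these shifts was not tested. With the replicate block 3510 probe sets were higher and 3407 lower, with 2 and 9 among the members, and Pfkm minus Pfkl was 1.16 as before. Dim signals limit what can be said of Pfkfb3 and Aldoc. The mean over probe sets gave no count for the fit over all probe sets.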

Other observations

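Isozymes typical of adult muscle gave no common direction beside the lower myotube markers. These genes were picked after their values were seen. Pfkm rose by 0.51 and Eno3 by 0.26 (0.13 after quantile normalization), whereas 4 of 5 Aldoa probe sets were called lower, and all 5 were lower after quantile normalization. Pgam2, the muscle phosphoglycerate mutase, was near the floor with means of 6.47 in pyruvate cells and 18.6 in untreated cells. It was under the signal filter, and without the filter its change was -0.62 with a 95% interval of -0.99 to -0.24 (limma adjusted p = 0.042) and no overlap of the groups. Muscle creatine kinase, Ckm, was at 53.4 in pyruvate cells and 65.2 in untreated cells and did not pass (-0.23, limma adjusted p = 0.17). Myogenin, Myog, had means of 212.0 in pyruvate cells and 1738 in untreated cells and changed by -2.96 (limma adjusted p = 1.1e-08).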
